A study of Mus musculus with 6 samples.

Results

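Imprinted genes that control growth were examined in cultured mouse breast cancer cells of the lines EO771-tdT-LM2 and EO771-tdT-Parental, called LM2 and Parental here. The set held 10 genes chosen by name, namely Peg3, Peg10, Mest, Dlk1, Plagl1, Grb10, Cdkn1c, Ndn, Zim1 and Phlda2, out of 35905 genes with a row in the data. EO771 is a mouse mammary carcinoma line, the labels give both lines the genotype WT, and how LM2 was derived is not stated in them. Each line was sampled in 3 libraries of RNA from cells grown for 48 h to about 75% confluence in RPMI 1640 with 10% serum. Each gene was measured as estimated counts and as TPM (transcript abundance per length, scaled to a fixed total), both summed over its transcripts, and counts were also expressed as CPM (counts scaled to library size after TMM normalisation). All 10 genes had a row, and every annotated transcript of each was among the transcripts quantified.

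An imprinted gene is transcribed mainly from the copy inherited from a given parent, under marks of DNA methylation set in the germ line at an imprinting control region. As a rule of thumb, genes expressed from the paternal copy promote fetal growth and those expressed from the maternal copy restrain it. Many of them are active in the embryo and placenta, are switched down after birth, and return to activity in some stem cells and tumours. Of the set, Peg3, Peg10, Mest, Dlk1, Plagl1 and Ndn are expressed from the paternal copy, and Phlda2, Cdkn1c, Zim1 and, outside neurons, Grb10 from the maternal copy. The data hold no information on which copy was read.

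The measured pattern was near silence with an exception. Phlda2 was the only member at a substantial level, Cdkn1c was detected at about 1 CPM or less, and the other 8 lay at or close to 0 counts in both lines. Of the 10 members 2 passed the low-count filter and were tested, against 57.4% of 21850 protein-coding genes. Both tested members were lower in LM2, Phlda2 by little and Cdkn1c more. Of all 13247 genes tested, 62.4% were called different between the lines and 31.1% were called lower in LM2 (edgeR adjusted p below 0.05), so 2 called members of 2 tested say little about the set.

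Promoter windows from RefSeq on build GRCm38.p6 were found for 8 of the 10 members, all but Cdkn1c and Peg10. Each window ran from 250 bases before to 50 bases after a transcript start. The windows of Phlda2, the member expressed at a substantial level, and of Plagl1 and Ndn, which had no count in any library, are shown 5′ to 3′ with each CG dinucleotide, the site of DNA methylation, in capitals. The Phlda2 window lies at chr7:143502475-143502774 on the minus strand, the Plagl1 window at chr10:13090582-13090881 on the plus strand and the Ndn window at chr7:62348027-62348326 on the plus strand.
Phlda2: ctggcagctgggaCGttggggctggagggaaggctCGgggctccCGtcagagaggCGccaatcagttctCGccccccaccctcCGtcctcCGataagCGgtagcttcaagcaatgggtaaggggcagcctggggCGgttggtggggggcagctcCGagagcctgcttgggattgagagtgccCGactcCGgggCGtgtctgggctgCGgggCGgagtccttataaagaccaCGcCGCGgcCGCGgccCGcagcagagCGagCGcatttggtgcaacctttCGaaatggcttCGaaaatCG
Plagl1: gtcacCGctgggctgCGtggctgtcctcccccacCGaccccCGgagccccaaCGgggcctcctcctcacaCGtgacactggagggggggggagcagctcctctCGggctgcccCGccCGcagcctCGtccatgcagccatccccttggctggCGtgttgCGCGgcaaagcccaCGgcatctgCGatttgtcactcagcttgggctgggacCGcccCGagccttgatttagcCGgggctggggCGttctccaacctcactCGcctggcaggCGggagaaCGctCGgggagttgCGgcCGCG
Ndn: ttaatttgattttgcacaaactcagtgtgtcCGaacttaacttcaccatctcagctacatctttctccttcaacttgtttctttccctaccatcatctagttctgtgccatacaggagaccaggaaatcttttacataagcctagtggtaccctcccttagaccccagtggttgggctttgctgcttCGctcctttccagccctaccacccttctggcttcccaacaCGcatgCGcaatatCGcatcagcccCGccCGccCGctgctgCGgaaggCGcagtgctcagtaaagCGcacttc

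The expressed Phlda2 and the silent Plagl1 each had 26 CG dinucleotides in their window, and Ndn had 11. The median over 32851 windows of the same length was 7, with quartiles of 3 and 20, so all 3 lay above the median. The highest count in the set was 45, in the upstream window of Grb10, another gene near 0. The CG count was thus the same for the expressed Phlda2 and the silent Plagl1. Cdkn1c and Peg10 had no window, so the set as a whole was not compared. Methylation itself was not measured. Words of known factors were looked up on both strands as a description only. The TATA box TATAAA was found in the Phlda2 window and in none of the other members' windows, against 13.6% of all windows. With windows for only 8 members, this cannot be read as a trait of Phlda2. The core TGCCGC, which the imprint-keeping factor ZFP57 binds when methylated, was found in windows of Mest, Zim1, Plagl1 and Grb10, against 11.6% of all windows. That share counts single windows. Mest and Grb10 have several windows each, not all with the word, so the genes cannot be set directly against it. The palindrome GGGGCCCC, which the zinc finger protein PLAGL1 can bind, was found in the Peg3 window, against 1.08% of all windows.

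**Figure D1:**
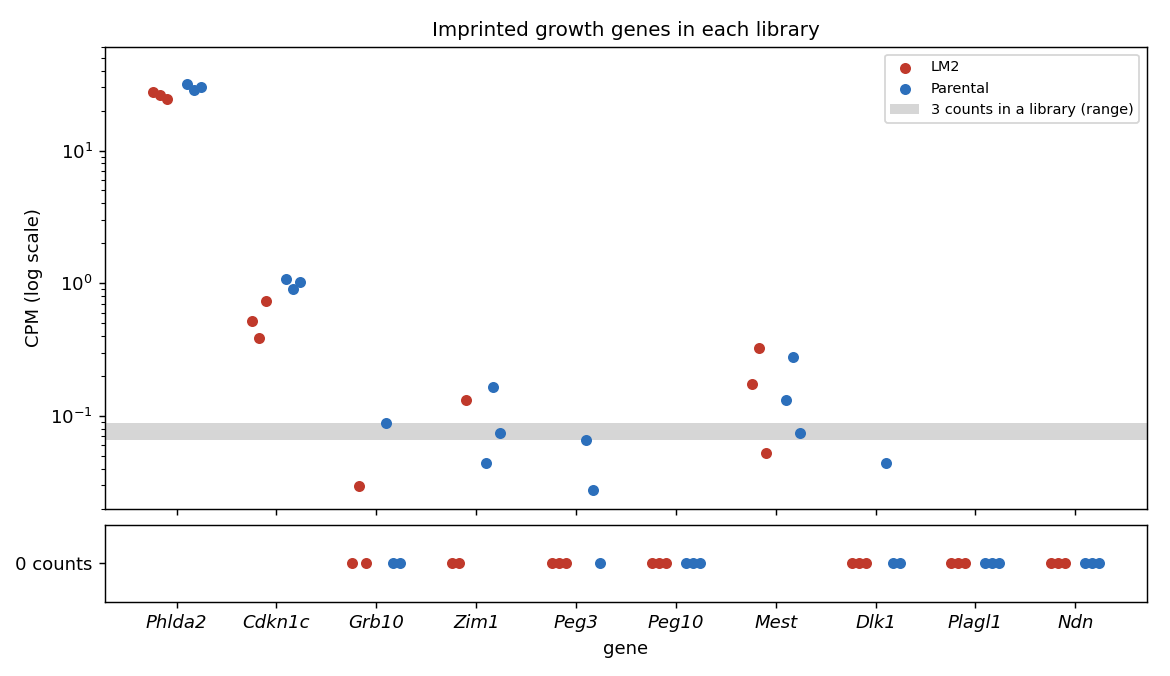
CPM of each member in each of the 6 libraries on a log axis, LM2 in red and Parental in blue, with libraries at 0 counts in the strip below and a grey band where 3 counts would lie (0.0657 to 0.0888 CPM by library). Phlda2 lies between 24.6 and 31.8 CPM, Cdkn1c between 0.385 and 1.08 CPM, and no other member exceeds 0.326 CPM.

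Phlda2 encodes a small protein with a pleckstrin homology domain that restrains growth of the placenta. It had 27.8, 26.03 and 24.6 CPM in LM2 replicates 1 to 3, against 31.8, 28.4 and 30.01 CPM in Parental replicates 1 to 3. Every LM2 library was below every Parental library, which held for 67.0% of all tested genes in either direction. The means were 26.1 ± 1.58 CPM in LM2 and 30.1 ± 1.74 CPM in Parental (SD, n = 3 each). Phlda2 fell 1.15-fold in LM2, a log2 fold change of -0.21 ± 0.06 (SE, edgeR adjusted p = 0.00299). The authors' deposited table lists a log2 fold change of -0.16 for it. Less RNA per cell and fewer cells that express the gene cannot be told apart in bulk RNA.

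Per length, Phlda2 reached 93.8, 95.1 and 92.7 TPM in LM2, against 114, 104 and 111 TPM in Parental. Its mean TPM exceeded that of 91.9% of protein-coding genes in LM2 and of 93.2% in Parental. Among the 10 members it held 97.6%, 97.3% and 96.4% of the summed estimated counts in LM2 replicates 1 to 3, and 95.6%, 95.4% and 96.2% in Parental replicates 1 to 3. The counts came mostly from a transcript of 757 bases, with 82.1% to 87.9% in LM2 and 81.4% to 84.0% in Parental. A shorter transcript of 376 bases took 9.32% to 13.1% in LM2 and 11.4% to 14.6% in Parental. These shares overlapped between the lines. None of the 31-base words of Phlda2 occurs in a transcript of another gene.

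Cdkn1c encodes p57, an inhibitor of cyclin-dependent kinases that stops cells in G1. It had 18, 13 and 28 counts in LM2 replicates 1 to 3, against 49, 33 and 41 counts in Parental replicates 1 to 3. In CPM these were 0.521, 0.385 and 0.734 in LM2, against 1.08, 0.909 and 1.02 in Parental. The lines did not overlap, which held for 67.0% of all tested genes in either direction. The spread was wider in LM2, though at so few counts it is poorly known in both lines. The means were 0.547 ± 0.175 CPM in LM2 and 1.001 ± 0.0849 CPM in Parental (SD, n = 3 each). Cdkn1c fell 1.82-fold in LM2, a log2 fold change of -0.86 ± 0.31 (SE, edgeR adjusted p = 0.0188). This call rested on few counts and was lost without LM2 replicate 1 (edgeR adjusted p = 0.0504), without LM2 replicate 2 (0.0934) or without Parental replicate 1 (0.0659).

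Per length, Cdkn1c reached 0.626, 0.396 and 0.788 TPM in LM2, against 1.35, 1.14 and 0.911 TPM in Parental, again without overlap. The Phlda2 level in TPM was 150, 240 and 118 times the Cdkn1c level in LM2, against 84.3, 91.2 and 122 times in Parental, and these ratios overlapped. Transcripts of 1888 and 1901 bases shared most of its counts, but their split moved widely among libraries of a line. The shorter of them held 48.2% to 94.6% of the counts in LM2 libraries and 21.4% to 60.6% in Parental libraries. As with Phlda2, no 31-base word of Cdkn1c occurs in another gene. The authors' deposited table lists Phlda2 alone among the members.

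**Figure D2:**
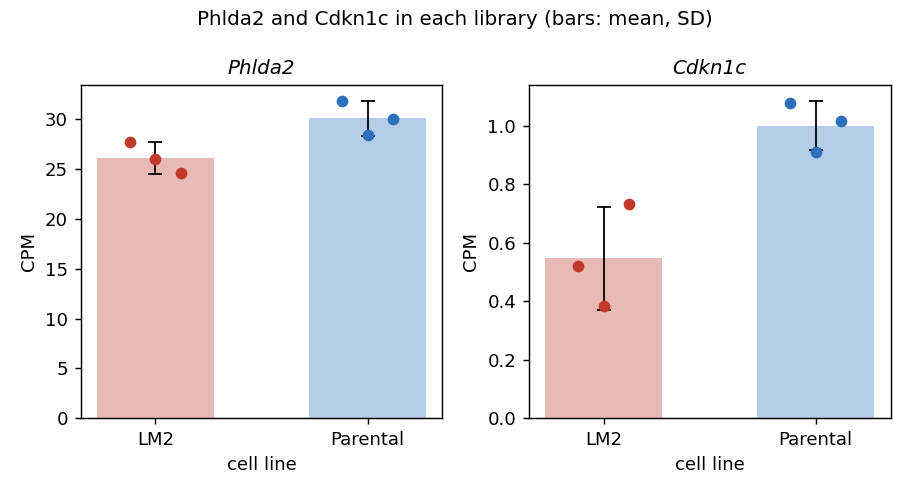
CPM of Phlda2 and Cdkn1c, with points for the libraries, bars for the mean and error bars for the SD of 3 libraries, LM2 left of Parental and axes starting at 0. All 3 LM2 points lie below all 3 Parental points for both genes, by a small margin for Phlda2 (27.8 against 28.4 CPM at the nearest).

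The other maternally expressed members, Grb10 and Zim1, were near 0. Grb10 encodes an adaptor that binds the insulin and IGF1 receptors and dampens their signal. It had 0, 1 and 0 counts in LM2, against 4, 0 and 0 counts in Parental, so that 1 library alone exceeded 3 counts. Zim1 encodes a zinc finger protein and neighbours Peg3. Its estimated counts were 0, 0 and 5.06 in LM2, against 2.04, 6.07 and 3.04 in Parental, and the lines overlapped. Other genes share 0.849% of the 31-base words of Zim1. Neither gene passed the low-count filter, so no fold change is given.

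Mest, a paternally expressed gene for a protein of the alpha/beta hydrolase fold that marks mesoderm and enlarging fat cells, was the highest of the untested members. It had 5.72, 10.8 and 2.40 estimated counts in LM2, against 6.35, 9.89 and 3.37 in Parental, so the lines overlapped almost fully. Its mean was 0.184 ± 0.137 CPM in LM2 and 0.161 ± 0.104 CPM in Parental (SD, n = 3 each). Mest overlaps Copg2, a coat protein gene on the opposite strand that was well expressed, at 39.2 CPM in LM2 and 47.1 CPM in Parental. Of the 31-base words of Mest 22.0% also occur in Copg2 on either strand, and no other gene shared more. A coding transcript of 2383 bases held 79.8% of the Mest counts in LM2 and 79.6% in Parental. How many of these few counts came from Copg2 RNA was not tested.

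The remaining paternally expressed members were at the floor of the measurement. Peg3, a zinc finger protein with roles in growth, maternal care and cell death, had 0 counts in all 3 LM2 libraries, against 3, 1 and 0 counts in Parental. Dlk1, a membrane protein of the Notch ligand family that holds back fat cell formation, had 0 counts in all 3 LM2 libraries, against 2, 0 and 0 counts in Parental. Neither gene exceeded 3 counts in any library, and no fold change is given for either.

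Peg10, a gene derived from a retrotransposon and needed for the placenta, Plagl1, a zinc finger factor that sits at the centre of a network of co-expressed imprinted genes, and Ndn, the necdin gene that holds neurons out of the cell cycle, had 0 counts in all 6 libraries. A count of 0 allows up to 3 counts, or 0.0789 to 0.0888 CPM in an LM2 library and 0.0657 to 0.0823 CPM in a Parental library, by counting error alone. In total 5 members never exceeded 3 counts in any library, which was also true of 28.8% of protein-coding genes. All of those 5 are among the 6 paternally expressed members, none of which was tested. Of the 4 maternally expressed members 2 were tested, both from the same domain, and Grb10 and Zim1 were not. Without a low-count filter, the 5 untested members with any count gave edgeR adjusted p values of 0.215 for Peg3, 0.408 for Dlk1, 0.544 for Grb10 and Zim1 and 0.886 for Mest.

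The summed estimated counts of the 8 untested members were 5.72, 11.8 and 7.45 in LM2 replicates 1 to 3, against 17.4, 16.96 and 6.41 in Parental replicates 1 to 3. The libraries held 33922699 to 38182191 estimated counts in LM2 and 36597892 to 45849019 in Parental. Replicates of a line varied by more than counting error, and chi-square divided by its degrees of freedom was 4.88 to 7.52 for pairs in LM2 and 3.09 to 4.34 for pairs in Parental. The labels do not say whether replicates were separate cultures, so p-values measure the spread among these libraries, which may be technical. Markers were looked up to check the cell type. Of 8 epithelial genes 3 were tested and all 3 were higher in LM2, against 31.4% of all tested genes. The adhesion gene Epcam had 15.3, 15.003 and 14.6 CPM in LM2, against 0.198, 0.165 and 0.0991 CPM in Parental, a 94.3-fold rise (edgeR adjusted p = 4.94e-19). The keratin gene Krt14 rose 7.67-fold to 8.47 CPM in LM2, against 1.11 CPM in Parental, and Krt8 rose 1.35-fold to 568 CPM in LM2, against 420 CPM in Parental. The defining Cdh1 (0.0938 CPM in LM2 and 0.187 CPM in Parental) and Krt18 (0.125 CPM in LM2 and 0.0449 CPM in Parental) were near 0. So were Krt19, Krt5 and Cldn7, at no more than 0.220 CPM on average in either line, and all 5 were untested. Whether the shifts in Epcam, Krt14 and Krt8 bear on the members was not tested. Of 6 mesenchymal genes 5 were tested, 3 were higher and 1 was lower, against 31.4% and 31.1% of all tested genes. Vim had 4776 CPM in LM2 and 3900 CPM in Parental, and Col1a1 had 1330 and 659 CPM. Against these, Col1a2 fell 4.02-fold to 0.232 CPM in LM2, against 0.926 CPM in Parental. Pdgfrb did not pass, Fn1 had 0.868 CPM in LM2 and 0.487 CPM in Parental, and Cdh2 was near 0. The summed level of 5 leukocyte genes was 2.55 to 3.07 CPM in LM2 and 1.69 to 2.09 CPM in Parental (1 tested, higher, with Adgre1 at 0). The summed level of 3 endothelial genes was 4.12 to 4.54 CPM in LM2 and 3.37 to 4.19 CPM in Parental (2 tested, 1 higher). That of 3 adipocyte genes was 0.157 to 0.208 CPM in LM2 and 0.248 to 0.446 CPM in Parental (none tested, with Lep at 0).

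Phlda2 and Cdkn1c lie close together on chromosome 7 in a domain ruled by the Kcnq1ot1 control region. Of 12 genes listed for that domain with a row, 10 were tested, 3 were higher and 5 lower in LM2, the members included. Over all tested genes, 31.4% were higher and 31.1% were lower. The list is not complete for the stretch, and some tested genes lying between those listed were not counted. Genes beside the members moved in opposite directions. Slc22a18, a transporter gene lying between Cdkn1c and Phlda2 among the genes listed, rose 1.34-fold to 15.8 ± 0.930 CPM in LM2, against 11.8 ± 0.00841 CPM in Parental (log2 fold change 0.42 ± 0.06, edgeR adjusted p = 4.59e-06). Nap1l4, a nucleosome assembly gene on the other side of Phlda2, fell 1.09-fold to 122 CPM in LM2, against 132 CPM in Parental (edgeR adjusted p = 0.000523), while the authors' deposited table lists it at 0.07 on the log2 scale, a rise.

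Further along the same domain, Tspan32, a tetraspanin gene, fell 2.35-fold to 1.25 CPM in LM2, against 2.97 CPM in Parental. The decoy receptor gene Tnfrsf23 fell 1.43-fold to 7.35 CPM in LM2, against 10.5 CPM in Parental. The lipid transfer gene Osbpl5 rose 1.23-fold to 62.0 CPM in LM2, against 50.3 CPM in Parental. Dhcr7, the last enzyme of a branch of cholesterol synthesis, rose 1.47-fold to 36.8 CPM in LM2, against 25.01 CPM in Parental. Cd81, a tetraspanin gene at 0.452 CPM in LM2 and 0.751 CPM in Parental, and the potassium channel gene Kcnq1, at 0.551 CPM in LM2 and 0.753 CPM in Parental, did not pass. Ascl2 and Tssc4 were not tested, at no more than 0.0648 CPM on average. Kcnq1ot1 was not analysed here.

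**Figure D3:**
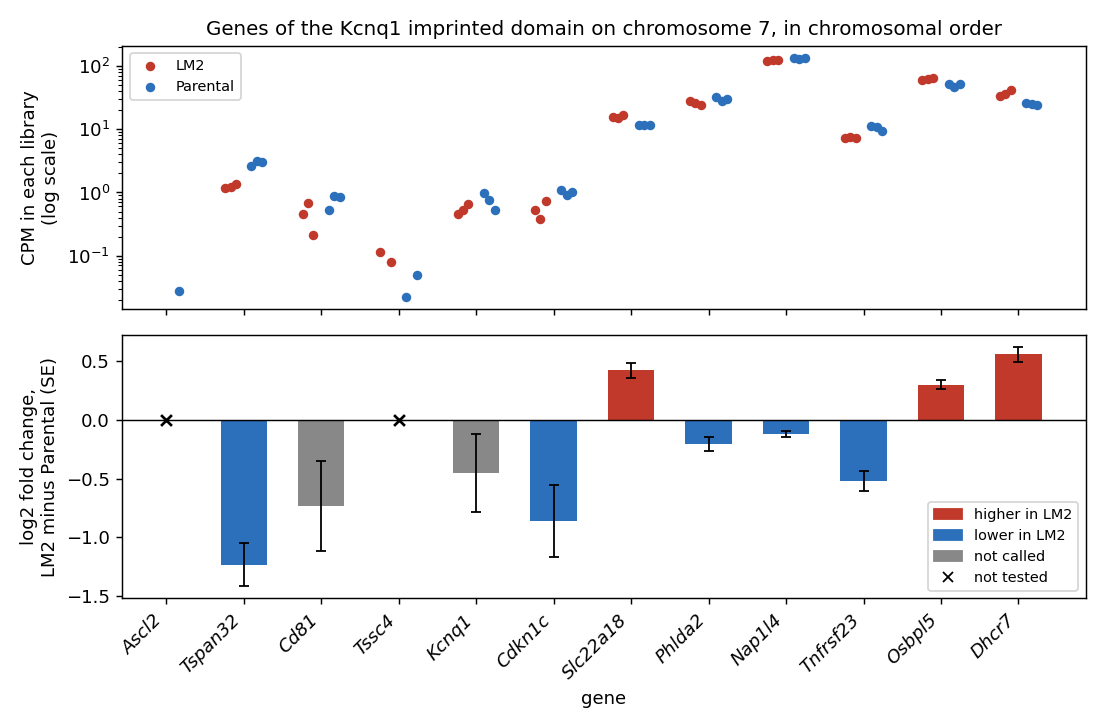
Genes listed for the Kcnq1 domain in chromosomal order. CPM in each library is on a log axis above (libraries at 0 not drawn). The log2 fold change of LM2 minus Parental with its SE is below. Of the called genes, Slc22a18, Osbpl5 and Dhcr7 point up, and Cdkn1c, Phlda2, Nap1l4, Tnfrsf23 and Tspan32 point down. Cd81 and Kcnq1, which were not called, also point down.

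The members on chromosome 6, the silent Peg10 and the barely detected Mest, had active neighbours. Beside Peg10, Sgce, an epsilon sarcoglycan gene read from the same promoter region in the other direction, averaged 0.0349 ± 0.0605 CPM in LM2 and 0.00733 ± 0.0127 CPM in Parental (SD, n = 3 each). Yet Casd1, a sialic acid acetyltransferase gene just beyond, had 16.6 CPM in LM2 and 20.6 CPM in Parental. The paraoxonase genes Pon3 and Pon2 had 26.8 and 41.6 CPM in LM2 and 34.96 and 53.9 CPM in Parental. All 3 fell in LM2, Casd1 1.23-fold, Pon2 1.30-fold and Pon3 1.30-fold, and so did Copg2 beside Mest, 1.201-fold. The authors' deposited table lists Casd1 at -0.43, Pon2 at -0.34, Pon3 at -0.33 and Copg2 at -0.1 on the log2 scale. The values here were -0.30, -0.37, -0.38 and -0.26. Asb4, Calcr and Tfpi2 in the Peg10 domain and Klf14 in the Mest domain were at or near 0, and Ppp1r9a averaged 0.138 CPM in LM2 and 0.133 CPM in Parental.

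Falls were common on that chromosome as a whole. The median log2 fold change was -0.18 over 617 tested genes of chromosome 6, against 0.00 over all tested genes. On chromosome 6, 119 were higher and 305 lower, where 31.4% of all tested genes were higher and 31.1% lower. Among the 5 tested genes on each side, the median was -0.37 around Peg10 and -0.35 around Mest. On chromosome 12 the median was -0.40 around Dlk1 and -0.19 over the chromosome, and on chromosome 10 it was -0.13 around Plagl1 and -0.33 over the chromosome. Around Grb10 on chromosome 11 it was -0.42, against -0.01 over the chromosome. On chromosome 7, whose median was 0.03, the value was -0.48 around Phlda2, -0.16 around Cdkn1c, -0.04 around Ndn and 0.26 around Peg3 and Zim1, which share their neighbours. Phlda2 and Cdkn1c each count among the neighbours of the other.

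The domain of Ndn, which in humans is the region of Prader-Willi syndrome, held both silent and expressed genes. Of its paternally expressed genes, Magel2, Snrpn, Snurf and Peg12 averaged at most 0.0523 CPM in either line. Mkrn3, another paternally expressed gene of the domain, stood at 1.04 ± 0.199 CPM in LM2 and 1.19 ± 0.193 CPM in Parental and did not pass. Ube3a, a ubiquitin ligase gene imprinted in neurons and read from both copies elsewhere, had 161 ± 1.83 CPM in LM2 and 162 ± 3.63 CPM in Parental, and Atp10a had 89.6 CPM in LM2 and 93.6 CPM in Parental. Neither passed, with edgeR adjusted p = 0.710 and 0.0959. None of the 3 tested genes of the domain was called. Snhg14, the long noncoding RNA gene of the domain, was not analysed here.

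In the Peg3 domain Usp29, which shares the Peg3 promoter region, averaged 0.170 ± 0.0538 CPM in LM2 and 0.0972 ± 0.0427 CPM in Parental and was not tested, and Zfp264 was at 0 in every library. In the Dlk1 domain Rtl1 averaged 0.0393 CPM in LM2 and 0.0670 CPM in Parental and Dio3 was at 0. Ddc, beside Grb10, averaged 0.229 CPM in LM2 and 0.167 CPM in Parental. Zim3, Meg3, Rian and Mirg of these domains were not analysed here.

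Among genes of similar level, those closest to Phlda2 in pattern over the 6 libraries were Rrp36, a gene of ribosomal RNA processing, Dus4l, of transfer RNA modification, and Acad8, of valine breakdown. Their root mean square differences from the Phlda2 pattern were 0.0285, 0.0310 and 0.0328 on the log2 CPM scale, among 3884 candidates. Their log2 fold changes were -0.21, -0.18 and -0.22, values close to that of Phlda2 because the genes were chosen for this likeness over the same libraries. Cdkn1c lay below 5 CPM and was not matched.

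Imprinted genes outside the set were compared as a list of 66, of which 57 had a row and 28 were tested. Of these, 7 were higher and 9 lower in LM2 and 12 did not pass, so 57.1% were called, against 62.4% of all genes tested. The median log2 fold change was -0.04, against 0.00 over all tested genes. No count above 3 in any library was seen for 18 of the 57, or 31.6%, close to the 28.8% of protein-coding genes. The largest rise was in Impact, a paternally expressed regulator of translation, with 44.5, 45.1 and 42.4 CPM in LM2, against 16.2, 13.03 and 14.0 CPM in Parental. Impact rose 3.04-fold (log2 fold change 1.60 ± 0.07, edgeR adjusted p = 2.03e-13), and no libraries overlapped.

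Igf2, the fetal growth factor gene, was close to 0 at 0.0634 CPM in LM2 and 0.0605 CPM in Parental. Igf2r, the maternally expressed receptor that clears it, rose 1.76-fold to 48.8 ± 2.15 CPM in LM2, against 27.6 ± 0.791 CPM in Parental (edgeR adjusted p = 8.68e-13). The authors' deposited table lists a larger rise for Igf2r, 1.19 on the log2 scale, against 0.82 here. Gnas, which encodes a G protein subunit and was the most abundant imprinted gene listed, rose 1.05-fold to 532 CPM in LM2, against 505 CPM in Parental. Zrsr1, a splicing factor gene, had 35.3, 55.1 and 32.1 CPM in LM2, against 31.5, 28.5 and 31.9 CPM in Parental, and did not pass (edgeR adjusted p = 0.230). Its LM2 replicate 2 stood apart from the other 5 libraries. Smaller shifts were a rise of 0.21 on the log2 scale in the phosphoinositide phosphatase gene Inpp5f, at 34.1 CPM in LM2 and 29.5 CPM in Parental, and falls in Commd1 (-0.16), of copper handling, and Gatm (-0.13), of creatine synthesis. H13, Blcap, Mcts2 and Trappc9 did not pass, with log2 fold changes of -0.02 to 0.02 at 11.7 to 122 CPM.

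Genes that keep imprints were mostly well expressed in both lines. Of 11 such regulators 9 were tested, and all 9 were called, 4 higher and 5 lower, where 62.4% of all tested genes were called. With limma on log2(TPM + 0.1) 6 were called. Their median log2 fold change was -0.08, against 0.00 over all tested genes. Zfp57, which binds methylated control regions, had 14.9, 14.6 and 17.8 CPM in LM2, against 5.01, 4.66 and 4.93 CPM in Parental. It rose 3.24-fold in LM2 (log2 fold change 1.70 ± 0.09, edgeR adjusted p = 2.65e-13). Its cofactor Trim28 fell by 0.08 on the log2 scale, to 329 CPM in LM2, against 348 CPM in Parental. Dnmt1, which copies methylation to new DNA, rose 1.22-fold to 538 CPM in LM2, against 442 CPM in Parental, and the insulator protein gene Ctcf fell 1.29-fold to 104 CPM in LM2, against 134 CPM in Parental. Smaller changes on the log2 scale were 0.17 in Setdb1, a histone methyltransferase that acts with Trim28, 0.11 in Uhrf1, which guides Dnmt1, -0.15 in the zinc finger gene Zfp445, which also binds control regions, -0.15 in Zfp202 and -0.15 in Smchd1, of chromosome silencing. Dppa3 and Ctcfl, genes of the germ line and early embryo, were not tested.

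Genes whose products work with the members formed a list of 14, of which 12 were tested, 6 were higher and 5 lower, where 62.4% of all tested genes were called. The number called was 7 with limma on log2(TPM + 0.1). Their median log2 fold change was 0.04, against 0.00 over all tested genes. The receptors bound by Grb10 were well expressed although Grb10 was near 0. Igf1r rose 1.31-fold to 285 CPM in LM2, against 217 CPM in Parental, and Insr fell 1.09-fold to 76.5 CPM in LM2, against 83.4 CPM in Parental. Irs2, an adaptor of both receptors, rose 1.32-fold to 53.0 CPM in LM2, against 40.2 CPM in Parental, and Nedd4, a ubiquitin ligase that binds Grb10, rose 1.04-fold at the threshold of the test (edgeR adjusted p = 0.0488). Among targets of p57, Cdk2 fell 1.41-fold to 48.1 CPM in LM2, against 68.0 CPM in Parental, and the cyclin gene Ccne1 fell 1.09-fold. E2f1, whose product necdin binds, rose 1.43-fold to 50.5 CPM in LM2, against 35.2 CPM in Parental. Partners of Peg3 moved apart, with Siah1a down 1.27-fold and Traf2 up 1.13-fold, and Notch1, whose signal Dlk1 can modulate, fell 1.52-fold. Sox9, a factor that Dlk1 keeps up in mouse fat precursor cells, stood at 117 CPM in LM2 and 115 CPM in Parental and did not pass.

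**Figure D4:**
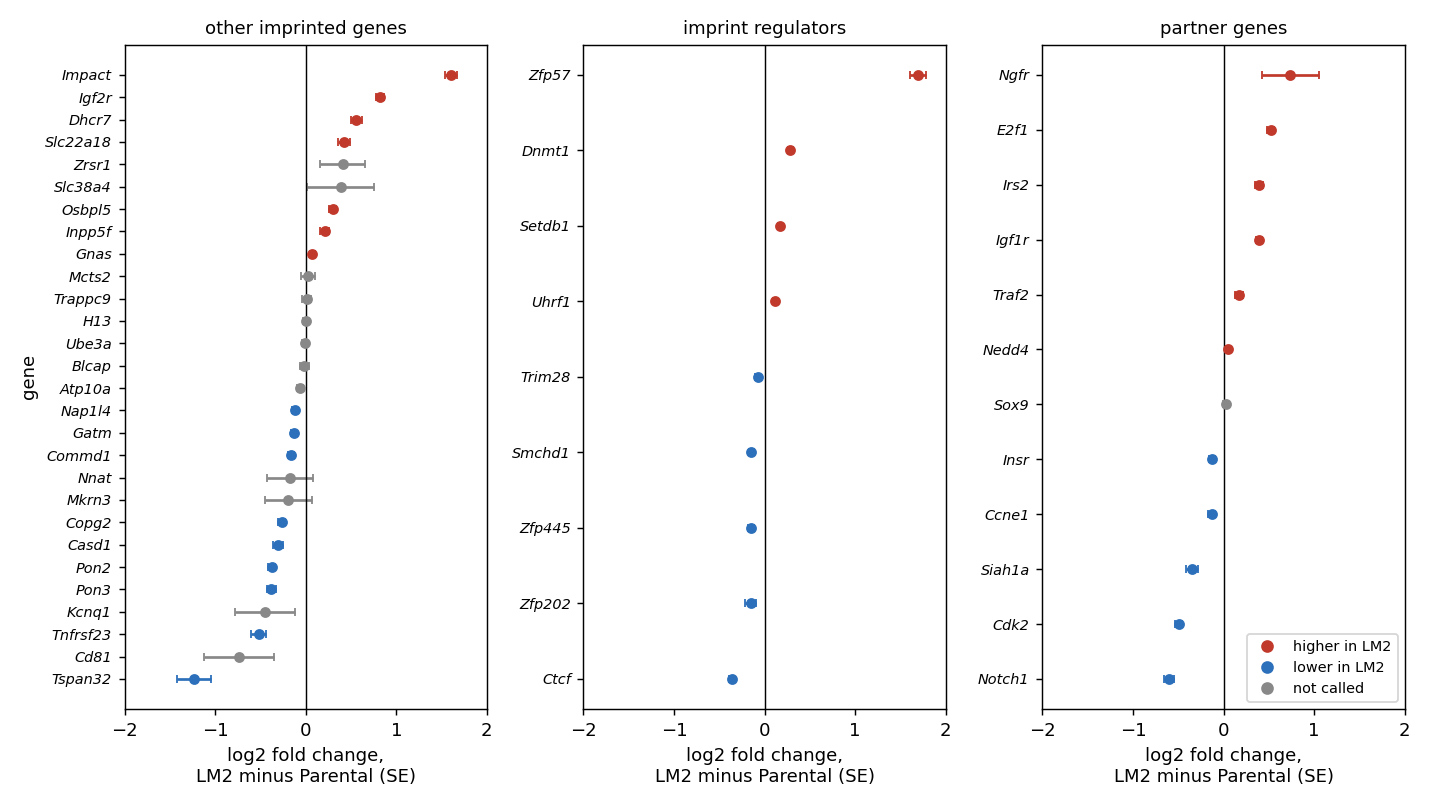
Log2 fold changes of LM2 minus Parental with their SE for the tested genes of the 3 lists, coloured by call (edgeR adjusted p below 0.05). Impact at 1.60 and Zfp57 at 1.70 lie furthest to the right, and Tspan32 at -1.23 lies furthest to the left.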

How the data were processed

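RNA of 3 LM2 and 3 Parental libraries was prepared with an mRNA kit, per the labels. The authors deposited estimated counts and TPM for 117486 transcripts per library, made with kallisto 0.46.2 on build GRCm39, per the submitters' processing notes. Neither the transcript set nor the strand setting is given in the sources used here. Reads from sequence that genes on opposite strands share may therefore not be told apart. The authors' deposited log2 fold changes cover 11005 gene symbols, and their base and direction were read from their closeness to the values computed here (median absolute difference 0.0243 over 10531 shared symbols). The tag Ac6 in the Parental titles is not explained in the labels and was not used.

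Transcripts were matched by Ensembl identifier to GENCODE M21, which is on GRCm38 and gave names and gene order, with 116408 (99.1%) matched. The unmatched held 0.426% to 0.448% of counts and were left out. Estimated counts were summed per gene, rounded and tested with edgeR 4.0.16 (filterByExpr, TMM, robust quasi-likelihood test, Benjamini-Hochberg adjustment over 13247 genes, threshold 0.05), in R 4.3.3, and the test was checked on simulated data. A gene's SE was approximated from its F statistic. Alternatives used DESeq2 1.42.0, limma 3.58.1 on log2(TPM + 0.1), other scaling and filters, an effective length offset, a replicate block and left-out libraries.

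The members and lists were chosen with earlier results of these data known. Named were all members, all genes sharing a domain with a member, list genes that reached 5 CPM in either line, and the 3 tested genes closest in log2 CPM pattern to each called member of at least 5 CPM, which left Phlda2. Neighbours were the 5 tested genes on each side. Igf2, Dppa3, Ctcfl, Ngfr and cell type markers were named outside this rule, after their values were seen.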

Additional observations from a re-analysis of the deposited data

How the results depend on the processing

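Of the alternatives run, Phlda2 kept its call and its direction in all, with log2 fold changes of -0.16 to -0.26. Cdkn1c kept its direction wherever it was tested, with log2 fold changes of -0.67 to -1.14, and its adjusted p ranged from 0.0101 to 0.0934. Requiring 1 CPM or more in 3 libraries removed Cdkn1c from the test and left 1 member called, since fewer genes were tested. Leaving out each library in turn gave 1 to 2 members called. Over all genes 6729 (limma on TPM) to 8596 (no low-count filter) were called, against 8272. Of the other imprinted genes 13 to 17 were called, against 16, and of the imprint regulators 6 to 9, against 9. Of the partner genes 7 were called with limma on log2(TPM + 0.1), against 11, and the cause was not tested; Nedd4 and Ngfr, with adjusted p of 0.0488 and 0.0479 by edgeR, lay at the threshold. Same-numbered libraries of the lines did not deviate together (correlations of -0.08, 0.05 and 0.01 across genes), so the numbers do not pair them. With the replicate number as a block, 8250 genes and the same number of members, 2, were called, and 9 partner genes. Where an untested member had 0 counts in a library, depth limits what can be said to an upper level of about 3 counts. Mest, Zim1 and Grb10 exceeded 3 counts in some library, with up to 10.8 (LM2), 6.07 (Parental) and 4 (Parental) counts.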
